A study of Mus musculus with 17 samples.

Results

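The levels of 10 genes known from resident macrophages of the peritoneal cavity were measured, Timd4, Cd5l, Icam2, Selp, Gata6, Cxcl13, Prg4, Adgre1, Marco and Vsig4. Several of them are also expressed by other cell types, as given below. The samples were tumors of AB12, a murine mesothelioma cell line, that grew in that cavity. The 10 genes were taken by symbol in Gencode vM21 from the 55450 genes of the count table, and each was found once. RNA of whole tumors was sequenced in 17 libraries. Untreated mice gave 3 tumors on d6 after AB12 injection, 5 on d10 and 3 on d14, and mice given anti CTLA-4 gave 3 tumors on each of d10 and d14. All mice were 8-week-old female BALB/c mice, a common inbred strain, with no engineered allele, and all tumors came from the same cell line, injected into the peritoneum. Treatment was 200 µg of anti CTLA-4, clone 9D9, given into the peritoneum with a schedule of 2 injections per week for 2 weeks. The study states injections on d6 and d10 for treated d14 tumors, and which injections the treated d10 tumors had received is not given in the sources used here. Each of the 5 groups was described as holding tumors of separate mice.

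The peritoneal cavity holds a large population of long-lived macrophages that keeps itself by local division and a smaller one that is renewed from blood monocytes. The resident population depends on the transcription factor GATA6, which is switched on by retinoic acid made by the mesothelium and the stroma beneath it. These cells float in the peritoneal fluid, take up apoptotic cells, secrete coagulation factors and attach to injured surfaces of the cavity. TIM-4, encoded by Timd4, is a receptor for phosphatidylserine on dying cells, and CD5L is a secreted scavenger protein of tissue macrophages. ICAM2 and P-selectin, encoded by Icam2 and Selp, are adhesion molecules that endothelium also makes, and P-selectin is stored in platelets too. CXCL13 is the chemokine that draws B cells through the receptor CXCR5, PRG4 is the lubricant lubricin, and F4/80, encoded by Adgre1, is a general marker of mouse macrophages. MARCO is a scavenger receptor for bacteria and particles, and VSIG4 is a receptor for complement C3 fragments.

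Among the 10 genes, 6 matched a RefSeq promoter window (GRCm38.p6, 250 bases before to 50 bases after the start of transcription), which were Timd4, Cd5l, Selp, Cxcl13, Marco and Vsig4, and 4 were not matched (Icam2, Gata6, Prg4 and Adgre1). The windows of Timd4 (chr11:46810549-46810848, plus strand), Cd5l (chr3:87357631-87357930, plus strand) and Selp (chr1:164115014-164115313, plus strand) are shown because these genes fell between d6 and d10, and because GATA6 is itself among the 10 genes. Capitals mark the GATA motif, searched as AGATAA on both strands, with A or T allowed at its first base and A or G at its last.
Timd4: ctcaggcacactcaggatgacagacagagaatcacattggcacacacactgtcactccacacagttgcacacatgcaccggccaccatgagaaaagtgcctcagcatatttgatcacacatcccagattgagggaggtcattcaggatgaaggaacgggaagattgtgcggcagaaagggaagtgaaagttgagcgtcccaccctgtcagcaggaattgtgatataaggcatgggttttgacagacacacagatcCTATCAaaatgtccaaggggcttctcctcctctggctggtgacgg
Cd5l: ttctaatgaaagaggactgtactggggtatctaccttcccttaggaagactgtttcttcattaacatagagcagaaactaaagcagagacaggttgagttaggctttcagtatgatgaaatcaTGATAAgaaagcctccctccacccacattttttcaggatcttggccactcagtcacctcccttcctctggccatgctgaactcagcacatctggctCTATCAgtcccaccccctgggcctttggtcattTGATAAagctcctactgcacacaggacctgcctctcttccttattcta
Selp: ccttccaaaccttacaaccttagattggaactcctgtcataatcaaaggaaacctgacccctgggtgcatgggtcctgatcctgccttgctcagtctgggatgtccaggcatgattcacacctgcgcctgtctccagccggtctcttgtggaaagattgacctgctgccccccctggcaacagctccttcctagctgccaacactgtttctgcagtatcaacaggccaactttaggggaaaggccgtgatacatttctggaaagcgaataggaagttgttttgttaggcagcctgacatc
The Cd5l window held 3 matches, which begin at -127, -31 and 3 relative to the start, and the Timd4 window held 1, which begins at 6. No match was found in the windows of Selp, Cxcl13, Marco and Vsig4. Of all 32851 windows, 29.8% held at least 1 match, so a match in 2 of 6 windows is near the share of promoters in general.

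Total counts ranged from 46371577 to 96759833 per library, and each of the 10 genes passed the filter on low counts in all 7 comparisons. Levels are given as normalized CPM, counts rescaled to a common library total with TMM scaling, and for comparisons between genes as normalized FPKM, which divides them by exonic length. In edgeR's quasi-likelihood test a gene was said to rise or fall where the Benjamini-Hochberg adjusted p-value over all genes tested was below 0.05 and the fold change above 2. The mesothelioma label was checked against mesothelial genes, and Msln, which encodes mesothelin, had 175 to 636 normalized CPM in every library. Krt18, a keratin gene, had 517 to 1083. Other mesothelial genes were at lower levels, such as Lrrn4 at 1.33 to 34.6 and Upk3b at 1.39 to 20.8. By the counts of 394 pseudogenes and small RNAs, the libraries were split into 3 sets, and this number was set with the data in view. The tumors of d6 and d10 replicates 1 to 3 made up the first set, d10 replicates 4 and 5 and the treated d10 tumors the second, and untreated and treated d14 tumors the third. With 3 sets, d10 replicates 1 to 3 against d6 and treated d10 tumors against d10 replicates 4 and 5 are comparisons within a set. So is treated against untreated d14 tumors, while the change to d14 and the set cannot be told apart. With 2 sets, all d14 tumors joined the second set, so that d14 against d10 replicates 4 and 5 lay within it. With 4 sets, treated and untreated d14 tumors were in separate sets, so that the d14 treatment comparison crossed sets.

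**Figure D1:**
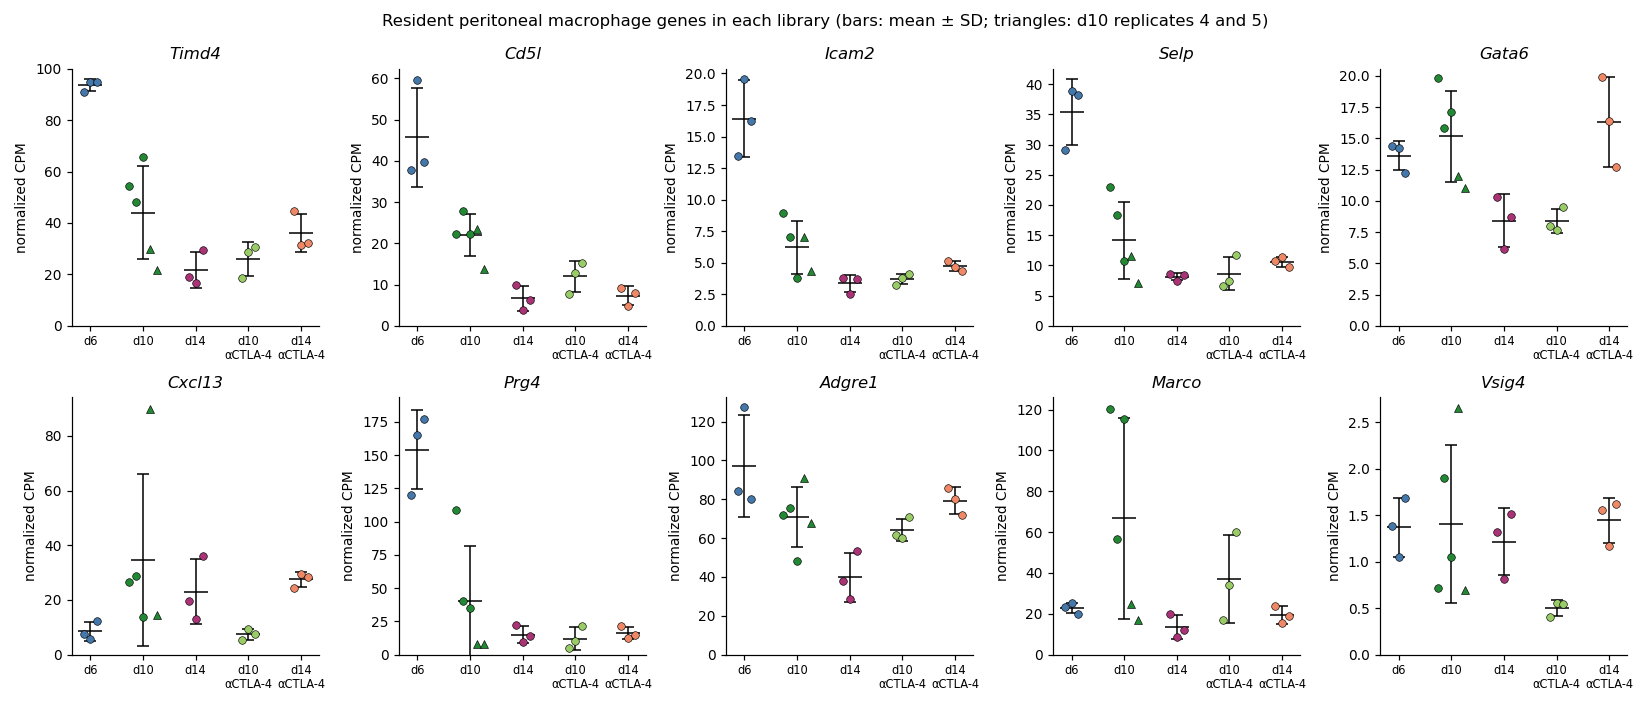
Normalized CPM (linear axis from 0) of the 10 genes in each of the 17 libraries, by group. Points are libraries, bars are the mean ± SD (cut at 0 for Prg4 at d10) and triangles mark untreated d10 replicates 4 and 5; Timd4, Cd5l, Icam2, Selp and Prg4 were highest in the 3 d6 tumors.

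At d6, normalized FPKM placed Timd4 first among the 10 genes (43.1 ± 1.08, SD, n = 3). Prg4 (36.0 ± 6.98) and Adgre1 (30.0 ± 8.09) came next and differed from each other by less than their SD. Cd5l (22.5 ± 5.90) and Marco (11.9 ± 1.35) followed. Icam2 (8.62 ± 1.60), Selp (8.02 ± 1.23) and Cxcl13 (7.39 ± 2.95) had levels within 1 SD of each other. Gata6 (2.09 ± 0.18) and Vsig4 (0.92 ± 0.21) had the lowest levels. At d14 the order was different, with Cxcl13 (19.98 ± 10.4, SD, n = 3), Adgre1 (12.3 ± 3.86) and Timd4 (10.0 ± 3.17) at the top in normalized FPKM, each within the SD of Cxcl13.

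From early- to intermediate-phase tumors, 4 of the 10 genes fell, Timd4, Cd5l, Icam2 and Selp, and none rose, where 2.66% of all 16866 genes tested fell. The median log2 fold change of the 10 genes was -0.73, against 0.03 over all genes tested. For Timd4, normalized CPM were 91.0, 95.02 and 95.02 at d6 and 54.3, 48.3, 65.8, 29.9 and 21.8 at d10. No d10 tumor reached a d6 tumor, and the lowest pair were d10 replicates 4 and 5. Its log2 fold change was -1.07 (SE 0.30, edgeR, adjusted p = 0.036), a 2.09-fold lower level. In bulk tumors, fewer cells of a type and less RNA per cell cannot be told apart. Normalized CPM are shares of a library, so a larger amount of RNA from other cells cannot be told apart from these either. The study describes larger tumors at d10 than at d6, and still larger ones with necrotic foci at d14. The part of tumor size and necrosis in these levels was not tested.

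Cd5l had 37.9, 59.6 and 39.8 normalized CPM at d6 and 22.3, 28.0, 22.2, 23.4 and 13.8 at d10, again without overlap, and fell by 1.04 on the log2 scale (SE 0.21, edgeR, adjusted p = 0.0096). For the adhesion gene Icam2 the values were 13.5, 19.5 and 16.3 at d6 and 8.91, 7.03, 3.77, 7.02 and 4.37 at d10 (log2 fold change -1.38, SE 0.26, edgeR, adjusted p = 0.0066). Selp had 29.1, 38.8 and 38.3 normalized CPM at d6 and 22.9, 18.4, 10.7, 11.6 and 7.02 at d10 (log2 fold change -1.30, SE 0.32, edgeR, adjusted p = 0.020). Both adhesion genes were lower in every d10 tumor than in any d6 tumor. Of 12 endothelial genes, 12 had a log2 fold change above 0. Among them 3, Cldn5 (2.48), Emcn (1.43) and Sele (1.40), rose, where 4.79% of all genes did. The summed normalized CPM of these 12 genes were 78.9 to 98.7 at d6 and 90.6 to 183 at d10, and those of 7 platelet genes were 1.40 to 1.94 and 2.65 to 3.08. The part of endothelium and platelets in the levels of Icam2 and Selp was not tested.

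The other 6 genes did not pass the test over all d10 tumors. For Prg4 the normalized CPM were 120, 165 and 177 at d6 and 109, 40.5, 34.7, 8.04 and 7.81 at d10, with d10 replicate 1 close to the d6 tumors and replicates 4 and 5 far below them (log2 fold change -1.93, SE 0.72, edgeR, adjusted p = 0.093). Cxcl13 had 7.56, 5.68 and 12.3 at d6 and 26.6, 28.9, 13.6, 89.7 and 14.6 at d10, all above the d6 tumors (2.04, SE 0.63, adjusted p = 0.051). Marco had 23.6, 25.1 and 20.1 at d6 and 120, 56.4, 116, 24.6 and 16.8 at d10, high in d10 replicates 1 to 3 and at the d6 level in the other two (1.57, SE 0.61, adjusted p = 0.11).

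Gata6 had 14.4, 14.2 and 12.3 normalized CPM at d6 and 19.8, 15.9, 17.1, 12.00 and 11.1 at d10, with overlapping groups (log2 fold change 0.18, SE 0.19, edgeR, adjusted p = 0.55). Its 95% interval, -0.20 to 0.55, lies above the log2 fold changes of Timd4, Cd5l, Icam2 and Selp. Adgre1 had 84.2, 127 and 80.2 at d6 and 72.2, 75.3, 48.4, 90.9 and 67.7 at d10 (-0.43, SE 0.20, adjusted p = 0.16). Vsig4 was low throughout, at 1.05 to 1.68 at d6 and 0.70 to 2.65 at d10 (0.06, SE 0.45, adjusted p = 0.94).

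The part of the d10 tumors that was used changed which genes passed. Against d6, d10 replicates 1 to 3 had 3 of the 10 genes lower (Icam2, Selp and Prg4), where 3.05% of all genes were lower, and 2 higher (Cxcl13 and Marco), where 5.73% were higher. With d10 replicates 4 and 5, 5 genes were lower (Timd4, Cd5l, Icam2, Selp and Prg4), where 9.29% of all genes were, and Cxcl13 was higher, where 7.41% were. Within the first set, the log2 fold changes of Timd4 and Cd5l were -0.71 and -0.90 (edgeR, adjusted p = 0.0025 and 0.0045), below 0 and within 2-fold. Icam2 and Selp were lower with either part, by 1.30 and 1.51 for Icam2 and by 1.01 and 1.91 for Selp on the log2 scale. For Prg4 the log2 fold change was -1.31 with replicates 1 to 3 and -4.27 with replicates 4 and 5. Marco was at 2.11 with replicates 1 to 3 and at -0.13 with replicates 4 and 5. Timd4 passed in 2 of the 8 fits that left out 1 library, and its call was lost without any one of the d6 tumors and without d10 replicate 2, 4 or 5. Its log2 fold change ran from -1.26 to -0.90 in these fits. Cd5l and Selp passed in 6 of 8 each and Icam2 in 8 of 8. Leaving out d6 replicate 2 left 1 gene past the test (Icam2), and leaving out d6 replicate 3 left 2 (Cd5l and Icam2).

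**Figure D2:**
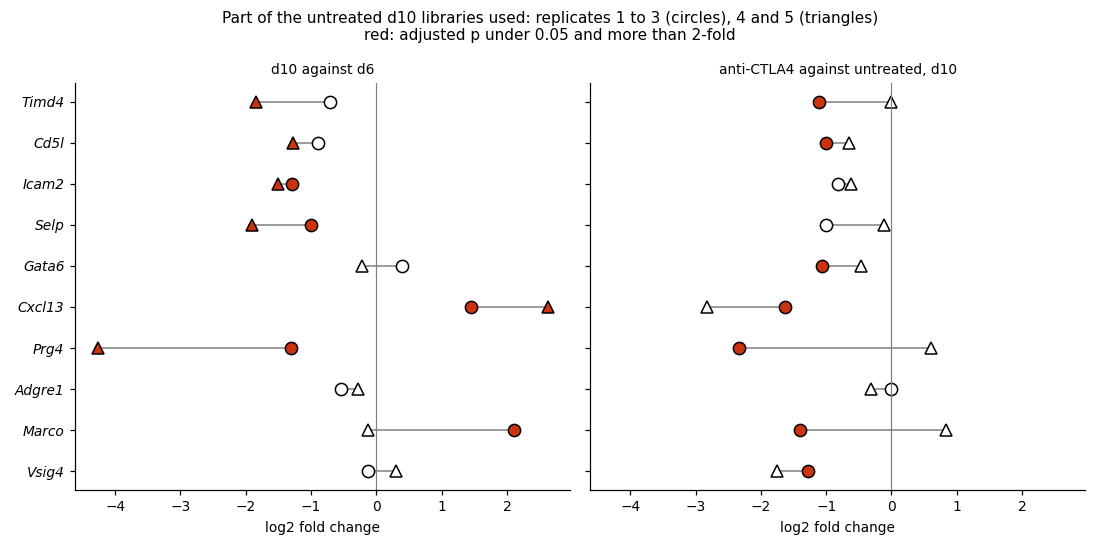
Log2 fold change (x axis) of the 10 genes when only d10 replicates 1 to 3 (circles) or only d10 replicates 4 and 5 (triangles) stood for untreated d10 tumors, against d6 (left) and for treated against untreated d10 tumors (right). Red symbols passed the test; Marco and Prg4 had the widest gaps, from 2.11 to -0.13 and from -1.31 to -4.27 in the comparison with d6.

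Between d6 and d14, 6 of the 10 genes fell (Timd4, Cd5l, Icam2, Selp, Prg4 and Adgre1), where 8.81% of all genes fell, and Cxcl13 rose, where 10.2% rose. The median log2 fold change of the 10 genes was -1.68, against 0.01 over all genes tested. At d14 the normalized CPM of Timd4 were 18.9, 16.8 and 29.7, which was 4.25-fold below d6 (log2 fold change -2.09, SE 0.18, edgeR, adjusted p = 6.9e-05). Cd5l had 9.91, 3.88 and 6.25 at d14 and fell by 2.76 (SE 0.32, adjusted p = 0.000196). Prg4, the gene with the steepest fall of the 10, had 22.2, 9.37 and 13.8 and fell by 3.33 (SE 0.29, adjusted p = 6.8e-05), a 10.1-fold difference. In all 3 the highest d14 tumor stayed well below the lowest d6 tumor.

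Icam2 had 3.82, 2.55 and 3.71 normalized CPM at d14 (log2 fold change -2.27, SE 0.20, edgeR, adjusted p = 7.0e-05) and Selp 8.52, 7.43 and 8.43 (-2.10, SE 0.13, adjusted p = 2.5e-05). Adgre1 had 37.7, 28.6 and 53.3 (-1.27, SE 0.23, adjusted p = 0.0020), a smaller value than those of the other 5 genes. Cxcl13 had 19.8, 13.01 and 36.2, each above all d6 tumors (1.45, SE 0.38, adjusted p = 0.012), and it did not pass when d14 replicate 3 was left out or all 5 groups were fitted together. Gata6 had 10.3, 6.16 and 8.75 (-0.68, SE 0.19, adjusted p = 0.015) and Marco 19.9, 8.69 and 12.3 (-0.73, SE 0.26, adjusted p = 0.040), both with p-values past the threshold and within 2-fold. Vsig4 had 1.32, 0.81 and 1.51 (-0.16, SE 0.30, adjusted p = 0.69). Genes of adipocytes, a tissue around the cavity, fell too, 4 of 5 tested (Cfd, Plin1, Adipoq and Cidec, log2 fold changes -3.69 to -2.56), and the summed normalized CPM of 7 such genes were 28.3 to 84.9 at d6, 29.3 to 59.5 at d10 and 14.5 to 24.0 at d14. Of 18 genes tested that macrophages share in general, 8 fell and 1 rose between d6 and d14, with a median of -0.73. Of 17 genes of the smaller, monocyte-derived peritoneal population 6 fell and 1 rose, and of 7 eosinophil genes tested 6 fell. The part of these cell types in the falls of the resident genes was not tested.

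From d10 to d14 alone, Cd5l and Marco fell, 2 of the 10 genes where 3.45% of all genes fell. Cd5l fell by 1.71 on the log2 scale (SE 0.31, edgeR, adjusted p = 0.0089) and Marco by 2.29 (SE 0.66, adjusted p = 0.039). The groups of Marco overlapped, because d10 replicate 5 (16.8) lay below d14 replicate 1 (19.9). With 1 library left out, Cd5l passed in 8 of 8 fits and Marco in 2 of 8, those without d10 replicate 4 or 5, with log2 fold changes of -2.67 to -1.98 for Marco. Timd4 was at -1.02 (SE 0.35, adjusted p = 0.065), Gata6 at -0.85 (SE 0.23, adjusted p = 0.031) and Adgre1 at -0.84 (SE 0.23, adjusted p = 0.031). With d10 replicates 1 to 3, 6 genes fell (Timd4, Cd5l, Selp, Gata6, Prg4 and Marco), where 6.56% of all genes did. With d10 replicates 4 and 5, 2 genes fell (Cd5l and Adgre1), where 3.62% did, and Marco was at -0.62 (adjusted p = 0.20).

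**Figure D3:**
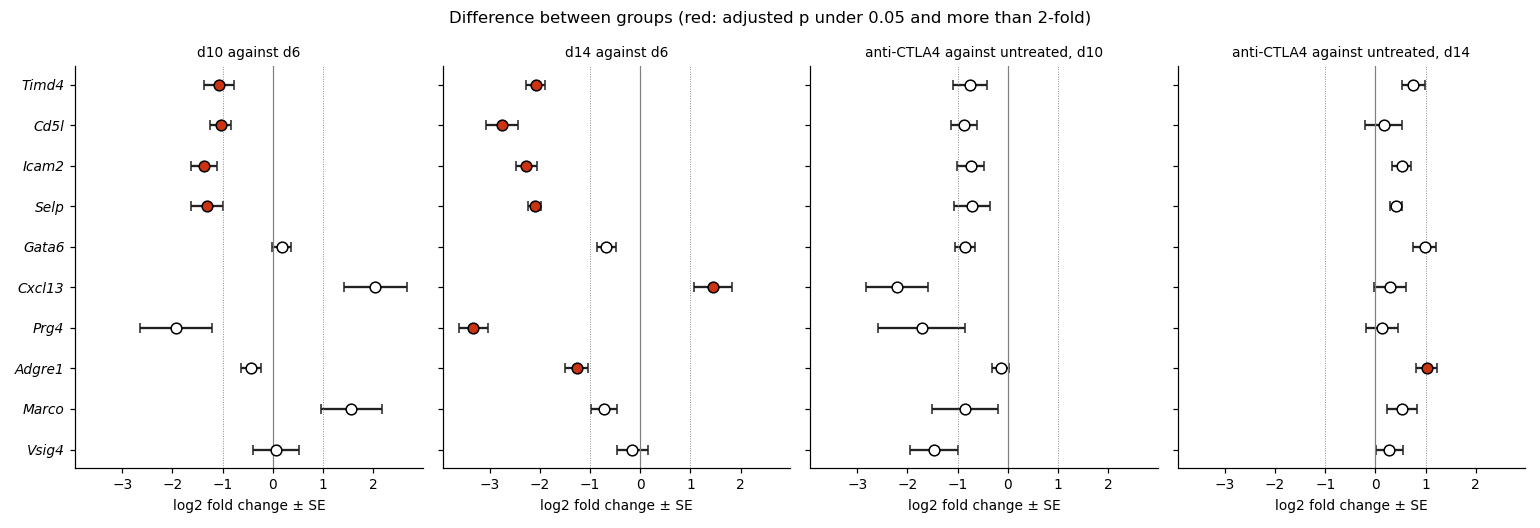
Log2 fold change ± SE (x axis) of the 10 genes in 4 comparisons, with all libraries of the groups compared. Red symbols passed the test and dotted lines mark a fold change of 2; 4 genes were lower at d10 and 6 at d14 than at d6, none passed between treated and untreated d10 tumors, and Adgre1 passed between treated and untreated d14 tumors.

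Genes shared by macrophages in general were read beside the resident genes. Of 18 such genes tested between d6 and d10, 1 rose (Apoe, log2 fold change 1.92) and none fell, with a median of 0.37, while 12 lay above 0. Csf1r, which encodes the receptor for the macrophage growth factor CSF1, had 177, 202 and 178 normalized CPM at d6 and 278, 354, 188, 326 and 245 at d10 (log2 fold change 0.60, SE 0.18, edgeR, adjusted p = 0.049, within 2-fold). Per 100 Csf1r counts, Timd4 had 50.5 ± 3.22 counts at d6 (SD, n = 3), 17.3 ± 10.9 at d10 (n = 5) and 14.4 ± 2.62 at d14 (n = 3). The d10 tumors ranged from 8.91 to 35.1 on this scale, all below the d6 tumors, which ranged from 47.0 to 53.2. For Cd5l these ratios were 24.4 ± 4.42, 8.11 ± 2.27 and 4.39 ± 1.68, and for Gata6 they were 7.35 ± 0.69, 5.79 ± 2.27 and 5.65 ± 1.30. In the comparison of d14 with d10, 10 of 18 general macrophage genes fell, with a median of -1.02, among them C1qa (-1.54), C1qb (-1.54) and C1qc (-1.56), subunits of the complement component C1q, and Fcer1g (-1.51). With d10 replicates 4 and 5 alone, 5 fell.

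Other genes known from resident peritoneal macrophages gave 6 of 20 lower and none higher at d10 than at d6, with a median log2 fold change of -0.21. Alox15, a lipoxygenase of these cells, had 224, 346 and 295 normalized CPM at d6 and 35.1, 24.6, 9.86, 14.7 and 11.3 at d10 (log2 fold change -3.90, SE 0.38, edgeR, adjusted p = 0.00035). The drop exceeded that of any of the 10 genes, and Alox15 reached 10.4, 3.07 and 3.65 at d14. Eosinophils also make Alox15, and of 8 eosinophil genes 5 fell, with summed normalized CPM of 39.5 to 44.7 at d6, 7.52 to 18.3 at d10 and 2.60 to 4.37 at d14. Among these 8, Ccr3 fell from 21.6 ± 1.72 (SD, n = 3) to 6.19 ± 3.06 (n = 5) normalized CPM between d6 and d10, and Ear2 from 9.13 ± 2.47 to 1.32 ± 0.46. Epx, which encodes eosinophil peroxidase, was at or below 1.22 normalized CPM in every library. The part of eosinophils in the fall of Alox15 was not tested. F5, which encodes coagulation factor V, fell from 75.6 ± 18.8 (SD, n = 3) to 13.1 ± 9.66 (n = 5) normalized CPM (-2.51, SE 0.50, adjusted p = 0.0089). Ednrb, an endothelin receptor (-1.60), and Pf4, platelet factor 4 (-1.43), fell as well. With d10 replicates 1 to 3, 5 of the 20 genes were lower and 1 was higher, and with replicates 4 and 5, 7 were lower. At d14, 8 of the 20 were lower than at d6 and 1 was higher.

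Genes of retinoic acid supply and response, the signal above Gata6, had 2 lower and 1 higher of 16 at d10 against d6, where 2.66% of all genes were lower and 4.79% higher. Stra6, a receptor for the retinol carrier, fell from 96.9 ± 14.0 (SD, n = 3) to 24.3 ± 5.07 (n = 5) normalized CPM (log2 fold change -1.97, SE 0.18, edgeR, adjusted p = 0.00021), and Cyp26a1, which degrades retinoic acid, fell as well (-1.45). Crabp2, a retinoic acid binding protein, rose (1.35). Aldh1a2, which makes retinoic acid, fell between d10 and d14, from 64.6 ± 18.2 to 30.9 ± 5.65 (-1.06, SE 0.24, adjusted p = 0.017), as did Cyp26a1 (-2.05) and Stra6 (-1.48). Of 16 genes for uptake of apoptotic cells, the process that TIM-4 serves, Havcr2 (2.82) and Stab1 (1.71) rose between d6 and d10 and Havcr1 (-1.23), which encodes the related receptor TIM-1, fell. Havcr2 encodes TIM-3, which T cells also carry. Gas6 (1.71), Scarf1 (1.46), Itgb3 (1.14) and Cd36 (1.13) of these 16 rose with treatment at d14.

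Genes of the smaller, monocyte-derived peritoneal population moved in both directions between d6 and d10. Of 17, 5 rose, among them Cx3cr1 (log2 fold change 3.41), a chemokine receptor of monocyte-derived cells, Cd226 (1.59) and the MHC class II gene H2-Eb1 (1.55), and 3 fell, among them Retnla (-2.74). In treated against untreated d14 tumors 4 of 17 rose, Retnla (3.74), Cd209a (1.71), Irf4 (1.38) and H2-Ab1 (1.15). The Retnla value rests on low and scattered levels, 2.13 ± 2.63 normalized CPM in treated and 0.17 ± 0.17 in untreated d14 tumors (SD). Its SE was 1.18 (edgeR, adjusted p = 0.045). Among 7 growth factor genes of macrophages and their receptors none passed between d6 and d10, and Csf1r (1.496), Csf2ra (1.47) and Csf2rb (1.44) rose with treatment at d14. Of 11 clotting genes tested, F5 fell between d6 and d10 and F13a1, which encodes a subunit of coagulation factor XIII, rose (2.06), while F7 (1.44), Thbd (1.42) and F10 (1.33) rose with treatment at d14.

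**Figure D4:**
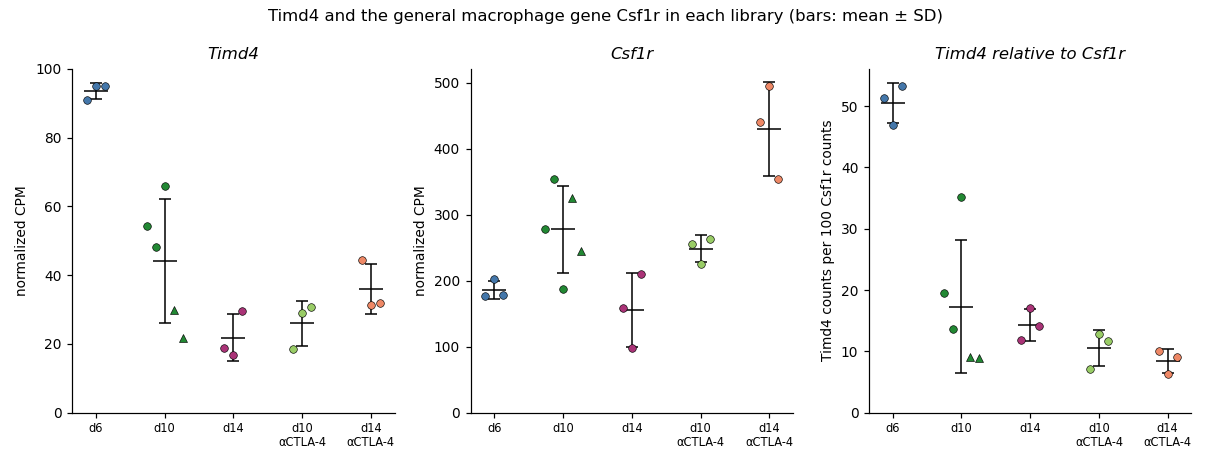
Normalized CPM of Timd4 (left) and Csf1r (middle) and Timd4 counts per 100 Csf1r counts (right), in each of the 17 libraries by group, on linear axes from 0. Points are libraries, triangles are untreated d10 replicates 4 and 5, and bars are the mean ± SD; the ratio was 47.0 to 53.2 at d6 and at most 35.1 in all other tumors.

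Treated d14 tumors had higher Adgre1 than untreated d14 tumors, 1 of the 10 genes where 9.07% of all genes rose, and all 10 had a log2 fold change above 0, with a median of 0.47 against 0.00 over all genes tested. Adgre1 had 85.8, 80.0 and 72.0 normalized CPM in treated and 37.7, 28.6 and 53.3 in untreated d14 tumors (log2 fold change 1.02, SE 0.21, edgeR, adjusted p = 0.011), close to a fold change of 2. It did not pass when all 5 groups were fitted together or when untreated d14 replicate 1 or 2 or treated d14 replicate 1 was left out. Gata6 had 19.9, 16.4 and 12.7 in treated tumors, each above the highest untreated one (0.99, SE 0.23, adjusted p = 0.017), at a 1.98-fold difference. Timd4 had 44.5, 31.4 and 32.0 (0.76, SE 0.23, adjusted p = 0.038) and Selp 10.7, 11.3 and 9.69 (0.41, SE 0.12, adjusted p = 0.036), both above all untreated d14 tumors and within 2-fold. Eosinophils carry F4/80 as well, and 5 of 7 eosinophil genes tested rose with treatment, with summed normalized CPM of 7.24 to 12.9 in treated and 2.60 to 4.37 in untreated d14 tumors. Their part in the level of Adgre1 was not tested.

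Cd5l was at 9.20, 4.798 and 8.02 normalized CPM in treated d14 tumors, inside the range of untreated ones (log2 fold change 0.16, SE 0.36, edgeR, adjusted p = 0.75, 95% interval -0.54 to 0.87). Prg4 was at 21.6, 12.7 and 14.7 (0.14, SE 0.32, adjusted p = 0.77) and Cxcl13 at 24.5, 29.6 and 28.6 (0.29, SE 0.32, adjusted p = 0.51), both overlapping the untreated tumors. Icam2, at 5.13, 4.69 and 4.36, lay above the untreated tumors without passing the test (0.52, SE 0.20, adjusted p = 0.077). Of 12 endothelial genes 1 rose (Vwf, 1.31), a share near the 9.07% of all genes, and the 12 summed to 178 to 215 normalized CPM in treated and 113 to 133 in untreated d14 tumors, and their part in the levels of Icam2 and Selp was not tested. Marco (0.54, SE 0.30, adjusted p = 0.20) and Vsig4 (0.28, SE 0.28, adjusted p = 0.46) did not pass either.

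Of 18 general macrophage genes, 10 rose with treatment at d14, with a median log2 fold change of 1.12, among them Apoe (1.57), Csf1r (1.496), C1qc (1.31) and Spi1 (1.25), which encodes the transcription factor PU.1. Csf1r had 440, 496 and 355 normalized CPM in treated and 159, 98.1 and 211 in untreated d14 tumors. Per 100 Csf1r counts, Timd4 had 8.49 ± 1.95 counts in treated and 14.4 ± 2.62 in untreated d14 tumors (SD, n = 3 each), ranges that did not overlap, although its normalized CPM were higher with treatment. Cd5l had 1.77 ± 0.70 and 4.39 ± 1.68, and Adgre1 18.6 ± 2.22 and 26.1 ± 2.75 on this scale. Of the 20 other resident genes 5 rose, including the protease inhibitor Slpi (1.63), the coagulation factor F10 (1.33), Apoc1 (1.26) and Lrg1 (1.09). These genes are also expressed outside resident macrophages.

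Genes of pancreas and liver were also looked for. The summed normalized CPM of 8 pancreatic acinar genes were 3424, 3.92 and 1154 in treated d14 replicates 1 to 3 and at most 2.45 elsewhere. Those of 8 liver and Kupffer cell genes were 0.56 to 5.52 in treated d14 tumors and at most 0.68 elsewhere, and Clec4f, the defining gene of Kupffer cells, which also carry Timd4, Cd5l, Marco and Vsig4, was at or below 0.12 in every library. Of the 8, Ahsg, a liver plasma protein gene, was the 1 that was tested, and it rose (1.93). The highest Timd4 value of treated d14 tumors lay in replicate 1, which also had the highest acinar sum. Without treated d14 replicate 1 none of the 10 genes passed the test, and without treated d14 replicate 2, which had the lowest acinar sum, Adgre1 did. Without treated d14 replicate 3, Gata6 and Adgre1 passed. The part of pancreatic tissue in the levels of the 10 genes was not tested.

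Gata6 was read beside genes of the mesothelium. Of 13 mesothelial genes 5 rose in treated d14 tumors, including Lrrn4 (log2 fold change 2.19), Cldn15 (1.959), Nkain4 (1.80) and Wt1 (1.54), while the summed level of the 13, carried by keratins and Msln, was 1913 to 2138 normalized CPM in treated and 2788 to 2844 in untreated d14 tumors. Wt1, which encodes a transcription factor of mesothelium and stroma, had 44.2, 30.6 and 23.8 normalized CPM in treated and 12.8, 7.71 and 14.1 in untreated d14 tumors. Between d6 and d10, 1 of the 13 fell (Upk1b, -1.07) and none rose. Mesothelial and stromal cells can also express Gata6, and their part in its levels was not tested. Intestinal epithelium expresses Gata6 too, and of 4 intestinal genes tested none passed and all 4 lay below 0. The part of intestinal tissue in the level of Gata6 was not tested. Retinoic acid genes had 4 of 16 higher with treatment, Wt1, Aldh1a3 (1.34), Dhrs3 (1.13) and Rarb (1.07).

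**Figure D5:**
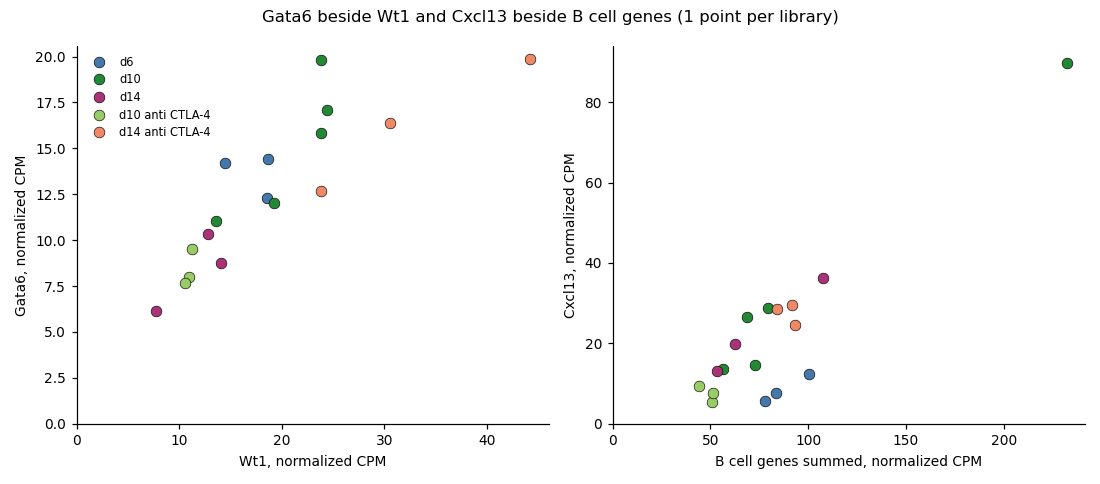
Normalized CPM of Gata6 against Wt1 (left) and of Cxcl13 against the summed normalized CPM of 10 B cell genes (right), 1 point per library, coloured by group, on linear axes from 0. The treated d14 tumor with the highest Gata6 (19.9) also had the highest Wt1 (44.2), and the d10 tumor with the highest Cxcl13 (89.7) had the highest B cell sum (232).

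At d10, none of the 10 genes passed the test between treated and untreated tumors (edgeR), where 0.0174% of all genes did. An unadjusted p below 0.05 (edgeR) was found for 5 of the 10, and for 2329 of all 17258 genes tested. With DESeq2, 1 of the 10, Cxcl13, passed. All 10 log2 fold changes lay below 0, with a median of -0.85 against -0.01 over all genes tested. Gata6 had 7.998, 7.65 and 9.50 normalized CPM in treated d10 tumors, each below the lowest untreated one (log2 fold change -0.86, SE 0.20, edgeR, adjusted p = 0.19). Of 13 mesothelial genes 10 also lay below 0, with a median of -1.41, none called and 9 with an unadjusted p below 0.05, and Wt1 had 10.6 to 11.2 normalized CPM in treated and 13.6 to 24.4 in untreated d10 tumors. Their part in the level of Gata6 was not tested. Cxcl13 had 5.38, 9.37 and 7.53 (-2.22, SE 0.62, adjusted p = 0.23) and Vsig4 0.41, 0.55 and 0.55 (-1.48, SE 0.48, adjusted p = 0.28), also without overlap.

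Timd4 had 18.4, 28.9 and 30.7 normalized CPM in treated d10 tumors (log2 fold change -0.76, SE 0.34, edgeR, adjusted p = 0.37), which overlapped d10 replicates 4 and 5. Cd5l had 7.83, 12.9 and 15.2 (-0.87, SE 0.25, adjusted p = 0.25), Icam2 3.27, 3.78 and 4.11 (-0.74, SE 0.27, adjusted p = 0.31) and Selp 6.63, 7.49 and 11.8 (-0.71, SE 0.36, adjusted p = 0.42). Prg4 had 4.99, 10.0 and 21.5 (-1.71, SE 0.87, adjusted p = 0.42), Marco 16.9, 34.2 and 60.0 (-0.85, SE 0.66, adjusted p = 0.58) and Adgre1 61.7, 60.2 and 70.9 (-0.14, SE 0.17, adjusted p = 0.72). In each of these 7 genes the treated d10 range overlapped that of the untreated d10 tumors.

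These values rest on which untreated d10 tumors were used. Against d10 replicates 1 to 3, which belong to another set of libraries, 7 of the 10 genes were lower in treated tumors (Timd4, Cd5l, Gata6, Cxcl13, Prg4, Marco and Vsig4), where 4.85% of all genes were lower. Against d10 replicates 4 and 5, within the set, their adjusted p-values ran from 0.0905 to 0.999. The log2 fold change of Timd4 was -1.11 against replicates 1 to 3 and -0.00073 against replicates 4 and 5. For Prg4 it was -2.33 and 0.61, and for Marco it was -1.40 and 0.83. Gata6 (-1.06 and -0.47), Cxcl13 (-1.63 and -2.82), Vsig4 (-1.28 and -1.75) and Cd5l (-1.01 and -0.65) lay below 0 with either part. So did Icam2 (-0.81 and -0.62), Selp (-0.999 and -0.12) and Adgre1 (-0.014 and -0.31).

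Whether the treatment difference at d14 differed from that at d10 was tested as an interaction. For 5 of the 10 genes (Timd4, Icam2, Gata6, Cxcl13 and Adgre1) the treatment difference was higher at d14, where 9.67% of all genes had a higher one, and all 10 values lay above 0. The largest of the 5 were those of Cxcl13 (2.50, SE 0.79, edgeR, adjusted p = 0.042) and Gata6 (1.83, SE 0.33, adjusted p = 0.0041). With d10 replicates 1 to 3, 9 genes passed, where 12.8% of all genes did, and Cd5l (1.17, adjusted p = 0.060) was the exception. With d10 replicates 4 and 5, 5 passed (Icam2, Gata6, Cxcl13, Adgre1 and Vsig4), where 9.31% of all genes did, and Timd4 was at 0.75 (adjusted p = 0.15). With 1 library left out, Gata6 passed in 14 of 14 fits and Adgre1 in 13, all but the one without untreated d14 replicate 2, while Icam2 passed in 7 and Timd4 and Cxcl13 in 4 each. Timd4 and Cxcl13 kept the call without d10 replicate 3, 4 or 5 or untreated d14 replicate 3, and lost it without any other single library. Other cell types had higher treatment differences at d14 as well, 8 of 13 mesothelial genes (median 2.61), 8 of 8 eosinophil genes and 12 of 18 general macrophage genes (median 1.35), and their part in those of the resident genes was not tested.

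Treated d14 tumors were also set beside untreated d10 tumors, a comparison that shares its libraries with those above. Cd5l was lower in treated d14 tumors (log2 fold change -1.62, SE 0.26, edgeR, adjusted p = 0.0035), 1 of the 10 genes where 2.49% of all genes were lower. Marco was at -1.81 (SE 0.62, adjusted p = 0.055), and Gata6 (0.07, SE 0.21, adjusted p = 0.84) and Adgre1 (0.12, SE 0.17, adjusted p = 0.63) lay near 0.

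The B cell chemokine Cxcl13 was highest in d10 replicate 4 (89.7 normalized CPM), which also had the highest level of 10 B cell genes. Their summed normalized CPM were 232 there and 56.5 to 79.4 in the other d10 tumors, 77.8 to 100 at d6, 53.2 to 108 at d14, 44.3 to 51.3 in treated d10 and 83.8 to 93.1 in treated d14 tumors. Of the 10 genes, Cd22 rose between d6 and d10 (log2 fold change 1.504). Cxcr5, the receptor of CXCL13, had 13.01 normalized CPM in d10 replicate 4 and at most 3.89 in the other libraries. Follicular stroma also makes Cxcl13, and the part of B cell areas in its level was not tested. Treated d10 tumors, with Cxcl13 at 5.38 to 9.37 normalized CPM, lay below every other d10 and d14 tumor in both Cxcl13 and the B cell sum.

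Across the 17 libraries, the level of Timd4 on a log2(normalized CPM + 1) scale went most closely with that of Selp and Prg4 among the 10 genes (Pearson's r = 0.90 for both), and Icam2 with Selp (0.96). Gata6 correlated less with Timd4 (0.64) and Cd5l (0.43), and Cxcl13 with none of Timd4, Cd5l, Icam2, Selp and Prg4 (-0.25 to -0.14). Among the 10 genes Cxcl13 went most closely with Vsig4 (0.71), and both were highest in untreated d10 replicate 4. Among 12379 protein coding genes, those outside the 10 whose pattern was most like that of Timd4 were Irf2 (0.96), AI429214, Nlrp1b, Skap2, Ifitm6, Epsti1, Zcwpw1 and P2ry12 (0.92). For Cd5l they were Clta (0.95), Selenos, Ube2q1, Psmb2, Itm2b, Spcs2, Dnajb11 and Nsmce3 (0.95). For Gata6 they were Cd248 (0.93), Pros1, Ptger3, Sgce, Rcn1, Fxyd1, Wt1 and Rcn3 (0.89). These correlations describe 17 libraries that share days, treatment and library sets.

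In GRCm38, Timd4 lies on chromosome 11 (46810800 to 46844332), Cd5l on 3 (87357881 to 87371073), Icam2 on 11 (106377656 to 106388075), Cxcl13 on 5 (95956951 to 95961068), Adgre1 on 17 (57358691 to 57483527), Marco on 1 (120474538 to 120505024) and Vsig4 on X (96247203 to 96293438), and the exons of these 7 genes overlap no other gene of Gencode vM21. Selp (1, 164115264 to 164150026) shares 624 exonic bases with the antisense gene Gm16587 and the lincRNA Gm16548, Gata6 shares 93 with 1010001N08Rik, and Prg4 (1, 150449412 to 150466165) shares 204 with Tpr, all on the opposite strand. Whether counting used strand is not given in the sources used here, so reads in these bases cannot be told apart between the genes.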

How the data were processed

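RNA was extracted from whole AB12 tumors, libraries were made with the KAPA RNA HyperPrep kit, and reads were aligned with TopHat2 2.0.14 to GRCm38 (mm10), per the study's methods and the submitters' processing notes. The deposited values are raw counts per gene, which the authors made with HTSeq (version not given in the sources used here) on Gencode vM21, and they carry no normalization. The study's methods name different read lengths and sequencing instruments, and do not say which tumors had which. They also state that genes with a significant batch effect between sequencing projects were removed. No gene was removed for such an effect here. No column was without a sample. Totals ran from 46371577 to 96759833 counts (median 72413343), and with 34 or more counts for each of the 10 genes in every library, intervals cover the spread between mice as well as counting error.

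Groups were taken from the labels, and the test was edgeR 4.0.16 (R 4.3.3, limma 3.58.1) with filterByExpr, TMM scaling and the quasi-likelihood F test, fitted on the groups compared, with Benjamini-Hochberg adjustment over all genes tested. A gene was called at an adjusted p below 0.05 and a fold change above 2. The SE was the absolute log2 fold change divided by the root of the F value, and the 95% interval is a normal interval from it. Such an interval is narrower than the F test implies with few libraries, and can leave out 0 where that test does not pass. For Selp and treatment at d10 it was -1.41 to -0.0015, with an unadjusted p of 0.078 (edgeR). Each of the 10 genes was named in every comparison. For the other lists, in the comparisons described, called genes were named where a list had 4 or fewer, and otherwise from the 4 with the largest changes. Called genes of lists in comparisons not described are left out, while Csf1r, Epx, Clec4f, Cxcr5, Msln and lists' further values beside a result were named for the cell type they mark. For likeness of pattern, the 8 closest protein coding genes were named among those averaging 1 normalized CPM or more for each of Timd4, Cd5l and Gata6. One called gene of the retinoic acid list is not reported here. The 10 genes and all lists were chosen with earlier results of these data known.

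Alternatives were DESeq2 1.42.0, no TMM scaling, no filter beyond a single count, all 5 groups in one fit, protein coding genes alone, a replicate block, parts of the d10 tumors and each library left out in turn. The counts for 3 of the lists with part of the d10 tumors were chosen after seeing the data. The scripts were tested on simulated data. Promoter windows are RefSeq sequences on GRCm38.p6.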

Additional observations from a re-analysis of the deposited data

Results flagged for a closer look

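Cxcl13 in untreated d10 replicate 4 (89.72 normalized CPM) lay far from the other 4 untreated d10 tumors, which had 13.6 to 28.9. It was found by Dixon's test at the 95% level on the 10 genes in the 5 d10 tumors, where chance gives about 1 such value in 20 groups.

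For 5 genes the effect of treatment differed between d14 and d10 by the interaction test in edgeR. The difference in log2 fold change was 1.51 for Timd4, 1.25 for Icam2, 1.83 for Gata6, 2.50 for Cxcl13 and 1.16 for Adgre1. Of these, Icam2, Gata6, Cxcl13 and Adgre1 differed with either part of the untreated d10 tumors, whereas Timd4 was at 0.75 (adjusted p = 0.15) with d10 replicates 4 and 5. In the 14 fits that left out 1 library, Gata6 passed in 14, Adgre1 in 13, Icam2 in 7 and Timd4 and Cxcl13 in 4 each.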

How the results depend on the processing

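Of 1100 values of the 10 genes under an alternative, 919 kept their direction and their side of the threshold, 44 turned direction, 81 passed where they had not and 56 no longer passed; except where a value or the smaller number of libraries in a fit shows it, the cause was not tested. Replicate numbers did not pair the libraries: correlations of same-numbered libraries ran from -0.305 to 0.194, and no comparison had all 3 above 0.1. The number of genes called, 1257 from d6 to d10, was 2794 with d10 replicates 4 and 5. For d14 against d10 (1277) it was 2001 with all 5 groups in one fit, 707 with protein coding genes and 1969 with d10 replicates 1 to 3, and for d14 against d6 (3270) it was 1995 with protein coding genes. For treatment at d10 (3) it was 223 with DESeq2, 0 without TMM (edgeR), 40 with all genes, 77 with all 5 groups, 0 with protein coding genes, 1210 with the replicate block, 1152 with d10 replicates 1 to 3 and 96 with 4 and 5. For treated d14 against untreated d10 tumors (1414) it was 778 with protein coding genes, 2361 with the replicate block, 2271 with d10 replicates 1 to 3 and 2202 with 4 and 5. Leaving out 1 library gave 810 to 1377 genes for d10 against d6, 281 to 1528 for d14 against d10, 3117 to 3437 for d14 against d6, 1172 to 2851 for treatment at d14, 0 to 115 at d10, 588 to 1790 for treated d14 against untreated d10 and 1315 to 2598 for the interaction.

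Of the 10 resident genes, leaving out 1 library gave 1 to 5 called for d10 against d6, 1 to 3 for d14 against d10, 6 to 8 for d14 against d6, 0 to 3 for treatment at d14, 0 to 0 at d10, 1 to 2 for treated d14 against untreated d10 and 1 to 7 for the interaction. With the replicate block, 6 were called for d14 against d10, 7 for treatment at d10, 3 for treated d14 against untreated d10 and 9 for the interaction. With d10 replicates 1 to 3 these counts were 6, 7, 3 and 9. The 2 alternatives are not separate, because replicate numbers 4 and 5 occur in untreated d10 tumors alone. Each of these libraries is fitted by its own block term and does not enter the difference between groups. Treatment at d14 gave 0 with all 5 groups in one fit and 2 with protein coding genes, treatment at d10 gave 1 with DESeq2, and treated d14 against untreated d10 gave 2 with DESeq2, with all genes, with all 5 groups and with d10 replicates 4 and 5.

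Values that turned direction were as follows. With d10 replicates 4 and 5, Gata6 was at -0.23 and Marco at -0.13 for d10 against d6, Prg4 at 0.92 for d14 against d10, Prg4 at 0.61 and Marco at 0.83 for treatment at d10, Timd4 at 0.45, Selp at 0.15, Prg4 at 1.01 and Adgre1 at -0.028 for treated d14 against untreated d10, and Prg4 at -0.47 and Marco at -0.29 for the interaction. With d10 replicates 1 to 3, Vsig4 was at -0.13 for d10 against d6, and Gata6 at -0.14, Cxcl13 at 0.23 and Vsig4 at 0.21 for treated d14 against untreated d10. With the replicate block, Vsig4 was at -0.21 (d10 against d6) and 0.064 (d14 against d10), and Gata6 at -0.16, Cxcl13 at 0.29 and Vsig4 at 0.28 (treated d14 against untreated d10). In that comparison Vsig4 was also at 0.022 with DESeq2, 0.017 with all genes, 0.14 without TMM, 0.035 with all 5 groups and 0.069 with protein coding genes. With 1 library left out, Vsig4 ran from -0.30 to 0.24 for d10 against d6, from -0.40 to 0.15 for d14 against d10, from -0.33 to 0.067 for d14 against d6 and from -0.18 to 0.37 for treated d14 against untreated d10. Cxcl13 ran from -1.08 to 0.13 for d14 against d10 and from -0.57 to 0.36, and Gata6 from -0.11 to 0.22, for treated d14 against untreated d10. For treatment at d14, Cd5l ran from -0.12 to 0.57, Prg4 from -0.13 to 0.53 and Cxcl13 from -0.0035 to 0.81. Of the called values, Prg4 with d10 replicates 4 and 5 passed in the turned direction (adjusted p = 0.013), higher in treated d14 tumors.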
